A study of Mus musculus with 95 samples.

Results

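The 10 primitive endoderm genes described here were Gata4, Gata6, Sox17, Sox7, Pdgfra, Hnf4a, Dab2, Lama1, Col4a1 and Col4a2, out of 23377 genes in the count table. They were a list of genes of this lineage, chosen with earlier results of these data known. They were read in RNA-seq libraries of 7 genotypes, together with ChIP-seq peaks within 2.5 kb of their annotated starts. All cells were of E14, a mouse embryonic stem cell line, or derived from it. Embryonic stem cells stand for the epiblast of the early embryo, so the list measures RNA of a neighbouring lineage. The RNA groups were wild-type, Pcgf1-/-, Pcgf2/4-/-, Pcgf3/5-/-, Pcgf6-/-, Pcgf1/2/4-/- and Pcgf3/5/6-/-, with 2 libraries each, where Pcgf4 is the gene called Bmi1 in the table. Peak lists also came from Ezh1/2-/- cells, from Ring1a-/- cells with floxed Ring1b and an inducible Cre, from Ring1a/b-/- cells, and from cells with lentiviral hairpins named shCtr (control), shMGA, shMGAdHLH and shE2F6. Every line grew on gelatin in serum medium with leukemia inhibitory factor, the GSK3β inhibitor CHIR99021 and the MEK1/2 inhibitor PD0325901. The knockouts were Cas9-edited clones, and lines lacking several genes were edited again from single knockouts. The labels do not say that the 2 libraries of a line came from separate clones. The p-values therefore measure only the spread between libraries of a line, pooled over all lines, which may be technical. In bulk RNA, fewer cells of a type and less RNA per cell cannot be told apart.

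PCGF proteins are alternative partners of RING1A or RING1B in Polycomb repressive complex 1, which adds ubiquitin to histone H2A (H2AK119ub1). PCGF2 and PCGF4 define its canonical form, which binds the H3K27me3 mark laid by complex 2, of which SUZ12 is a core subunit. The other PCGF proteins define variant forms, and the PCGF6 form also holds MGA and E2F6. Primitive endoderm is the layer that forms beside the epiblast in the blastocyst and gives rise to the yolk sac endoderm. Its formation needs FGF signalling through MEK, the transcription factors GATA6, SOX17, GATA4 and SOX7 come on in that order, and PDGFRA marks the cells. Its later cells make HNF4A and DAB2, and lay down a basement membrane of laminin and type IV collagen, to which LAMA1, COL4A1 and COL4A2 contribute.

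Sequences before 3 starts are shown, because the peaks or RNA described below differed between lines there. They were read from the mouse build NCBIM37 with GENCODE M1 starts, and capitals mark the letters of a motif that was searched. The Dab2 stretch precedes an internal start at 6336598 and lies between exons of longer Dab2 transcripts, with the SOX motif ACAAAG read on the other strand as CTTTGT. The Hnf4a stretch precedes the start at 163332674 and ends with the GATA motif AGATAA, of which the last 3 bases lie in an annotated untranslated exon. The Sox17 stretch lies before its first start, outside any annotated gene, and holds the GATA motif TGATAA.
Dab2, before the internal start, chr15:6336348-6336597, plus strand: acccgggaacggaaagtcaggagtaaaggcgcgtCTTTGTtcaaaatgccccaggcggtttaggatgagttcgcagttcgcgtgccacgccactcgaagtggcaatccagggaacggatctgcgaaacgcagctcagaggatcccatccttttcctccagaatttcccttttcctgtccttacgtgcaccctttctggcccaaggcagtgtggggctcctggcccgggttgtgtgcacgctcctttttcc
Hnf4a, before the start that carried H3K4me3, chr2:163332424-163332546, plus strand: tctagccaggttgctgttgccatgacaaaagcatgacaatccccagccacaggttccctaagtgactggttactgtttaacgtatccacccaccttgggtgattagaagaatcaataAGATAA
Sox17, before the first start, chr1:4486495-4486744, minus strand: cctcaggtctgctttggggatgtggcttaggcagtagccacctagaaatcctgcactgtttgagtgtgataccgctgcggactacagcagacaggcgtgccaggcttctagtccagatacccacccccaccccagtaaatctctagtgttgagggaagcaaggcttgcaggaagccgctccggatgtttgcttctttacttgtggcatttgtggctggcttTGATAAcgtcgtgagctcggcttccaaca

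Across 300-base windows (250 bases before to 50 after 1 chosen start per gene), motifs were searched on both strands for 9 members, all but Gata6. The E-box CACGTG stood in 1 member window, that of Gata4, against 7.36% of all 67166 windows. TCCCGC, an E2F motif, stood in those of Sox7 and Col4a1, against 23.7%. AGATAA was found before Hnf4a, against 9.57%, and TGATAA before Sox17 and Sox7, against 7.48%. ACAAAG was found before Dab2, against 17.4%, and AACAAT in 0 member windows, against 8.97%. The windows held between 4 CG dinucleotides at Pdgfra and 37 at Col4a1, with a median of 23, and the median of all windows was 10. These matches describe letters, not binding.

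The 14 RNA libraries held 2147968 to 7848161 counts, and 3 counts, used as a floor for a gene without counts, equalled 0.328 to 1.60 CPM (counts scaled to a total of 1000000) by library. Counts of both wild-type libraries differed by less than sampling noise (chi-square per degree of freedom 0.958, against 1.18 to 19.5 in the other pairs). The pair was therefore counted as 1 sample and its values are given singly with no SD. The fit entered them as separate libraries, and a fit with the pair summed, added after seeing the data, made the same calls for the members in the 6 comparisons with wild-type. The fit pooled the spread over all pairs. SEs and p-values for Pcgf1-/-, Pcgf2/4-/- and Pcgf3/5-/-, with chi-squares per degree of freedom of 10.1, 19.5 and 5.31, may therefore be too small. Pcgf1 RNA stood at 6.30% of wild-type in Pcgf1-/- and 1.13% in Pcgf1/2/4-/-, and Pcgf6 had no counts in Pcgf6-/-. In Pcgf3/5/6-/- the level of Pcgf6 RNA was 112% of wild-type, and RNA of Pcgf2, Bmi1, Pcgf3 and Pcgf5 was between 42.3% and 126% of wild-type in the lines edited for them. A Cas9 edit can leave RNA in place, so counts do not check those edits, and for Pcgf6 the name Pcgf3/5/6-/- is used as the label gives it.

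Wild-type cells had RNA of 6 of the 10 genes. On a per-length scale (RPKM, which is CPM divided by the exon length in kilobases), Lama1, the laminin α1 chain, was highest with a mean of 7.29, followed by Hnf4a, a nuclear receptor, with 3.90. Col4a1 had 1.17 RPKM, Sox7 0.452, Pdgfra 0.273 and Col4a2 0.257. Gata4, Gata6, Sox17 and Dab2 had 0 counts in both wild-type libraries, which allows up to 0.212 CPM over the group. So of the transcription factor genes Gata6, Sox17, Gata4 and Sox7, wild-type counts were found for Sox7 alone.

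**Figure D1:**
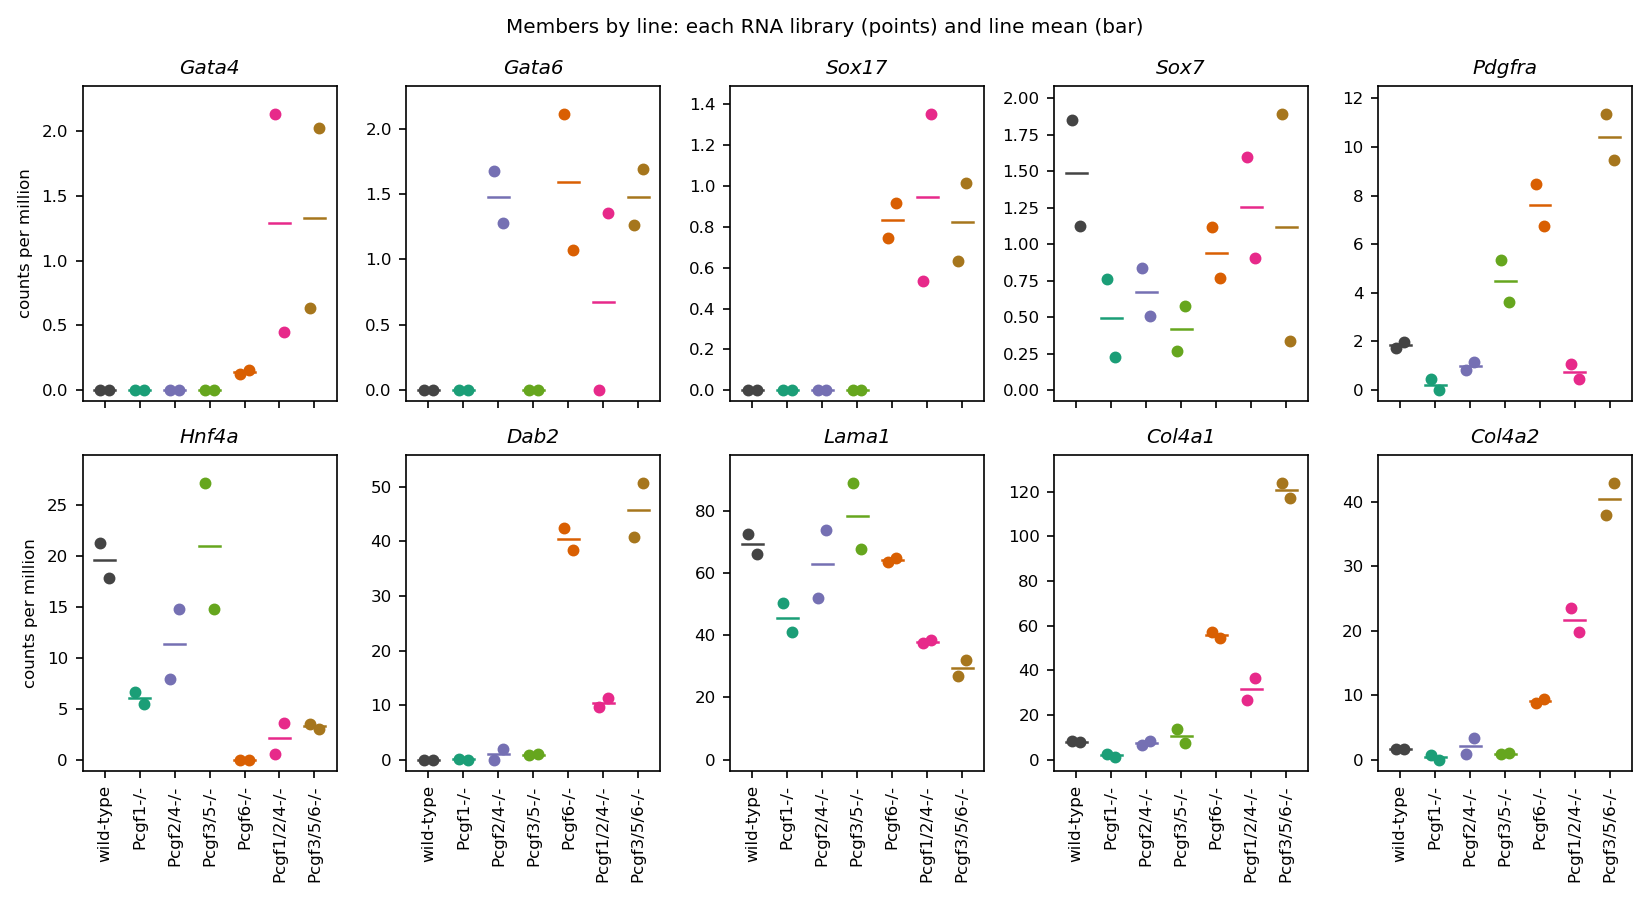
Level of each of the 10 genes in CPM (vertical axis, a linear scale per gene) in the 7 lines; points are single RNA libraries and bars the mean of the 2. Dab2 reaches 42.4 and 38.5 in Pcgf6-/- and lies at 0 in wild-type, while Hnf4a lies at 0 in Pcgf6-/-.

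The transcription factors Gata4, Gata6 and Sox17, were found only as a few counts, all of them in knockout lines. Gata6 (chromosome 18, plus strand), the GATA factor that acts first in this lineage, had 4 and 10 counts in Pcgf2/4-/-, 17 and 7 in Pcgf6-/-, 0 and 3 in Pcgf1/2/4-/- and 4 and 5 in Pcgf3/5/6-/-. These were 1.67 and 1.28 CPM in Pcgf2/4-/-, 2.12 and 1.07 in Pcgf6-/-, 0 and 1.35 in Pcgf1/2/4-/-, and 1.26 and 1.69 in Pcgf3/5/6-/-. Wild-type, Pcgf1-/- and Pcgf3/5-/- libraries had 0 counts, so 3 of the lines stood apart from wild-type without overlap. Gata6 did not pass the filter on low counts. In the edgeR quasi-likelihood fit without that filter (20253 genes, Benjamini-Hochberg), the adjusted p was 0.00590 in Pcgf2/4-/-, 0.000636 in Pcgf6-/-, 0.00310 in Pcgf3/5/6-/- and 0.0626 in Pcgf1/2/4-/-. Gata6 was at least 6.45-fold higher than wild-type in Pcgf2/4-/-, at least 7.75-fold in Pcgf6-/- and at least 6.92-fold in Pcgf3/5/6-/-. In the authors' deposited table Gata6 had adjusted p-values of 0.00721, 0.00193 and 0.00253 in these 3 lines, and of 0.0319 in Pcgf1/2/4-/-. The header of the authors' deposited table for Pcgf6-/- carries another clone-like number than the count columns, and whether it was made from the same libraries is not given in the sources used here. A gene named 1010001N08Rik overlaps Gata6 on the other strand, and without knowledge of strand use their reads cannot be told apart.

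Sox17, an HMG-box factor of endoderm on the minus strand of chromosome 1 (4481009 to 4486494), had 6 and 6 counts in Pcgf6-/-, 1 and 3 in Pcgf1/2/4-/-, 2 and 3 in Pcgf3/5/6-/- and 0 in the other 4 lines. In CPM these were 0.747 and 0.919 in Pcgf6-/-, 0.534 and 1.35 in Pcgf1/2/4-/-, and 0.632 and 1.01 in Pcgf3/5/6-/-. All 6 of these libraries had counts, and the values of the 3 lines overlapped. Sox17 did not pass the filter either, and without it the adjusted p was 0.0103 in Pcgf6-/-, 0.0319 in Pcgf1/2/4-/- and 0.0227 in Pcgf3/5/6-/-. The lower bounds on the rise over wild-type were 3.88-fold, 4.605-fold and 3.84-fold. In the authors' deposited table the adjusted p of Sox17 was 0.0402 in Pcgf6-/- and 0.0395 in Pcgf3/5/6-/-.

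Gata4, a GATA factor that follows Gata6 and lies on the minus strand of chromosome 14 (63817759 to 63890529), had 4 and 1 counts in Pcgf1/2/4-/-, 2 and 6 in Pcgf3/5/6-/-, 1 and 1 in Pcgf6-/- and 0 in the other lines. The CPM values were 2.14 and 0.452 in Pcgf1/2/4-/- and 0.632 and 2.03 in Pcgf3/5/6-/-, so the replicates of a line differed by more than 3-fold. Gata4 passed the filter through these shallow libraries. It was called higher than wild-type in both triple knockouts, at least 5.75-fold (adjusted p 0.0160) and at least 6.15-fold (adjusted p 0.00497). The first call was lost without either wild-type library (adjusted p 0.0645 and 0.0625), and the second with a loess scaling of the libraries (adjusted p 0.0860). In Pcgf6-/-, with 0.125 and 0.153 CPM, it did not pass the test (adjusted p 0.230).

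Sox7, the HMG-box factor that marks the later cells, lies on the plus strand of the same chromosome (64562511 to 64569569). It was low in every line and passed the test in 0 of the 6 comparisons with wild-type. Wild-type libraries had 1.85 and 1.12 CPM and the knockout libraries 0.229 to 1.90 CPM. Pcgf3/5-/- had 0.267 and 0.575 CPM, below both wild-type libraries, with a log2 difference of -1.85 ± 0.66 (SE) and an adjusted p of 0.0604. The other 5 knockouts had log2 differences between -1.31 and -0.28. With a loess scaling Sox7 was called lower in Pcgf3/5-/- (adjusted p 0.0400), Pcgf6-/- (0.00269) and Pcgf3/5/6-/- (0.0129), and with the replicate number as a block in Pcgf3/5-/- alone (0.0432).

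Dab2, an endocytic adaptor of yolk sac endoderm (chromosome 15, 6249788 to 6390712, plus strand), went from 0 counts in wild-type to 341 and 251 counts in Pcgf6-/-. Its levels were 42.4 and 38.5 CPM in Pcgf6-/-, 40.8 and 50.7 CPM in Pcgf3/5/6-/-, and 9.61 and 11.3 CPM in Pcgf1/2/4-/-. Pcgf1-/- had 0.109 and 0 CPM, Pcgf2/4-/- 0 and 1.92, and Pcgf3/5-/- 0.802 and 0.959. The levels of Pcgf6-/- and Pcgf3/5/6-/- overlapped and stood above those of Pcgf1/2/4-/-, which stood above the rest. Dab2 was at least 191-fold higher than wild-type in Pcgf6-/- (adjusted p 1.92e-08), at least 214-fold in Pcgf3/5/6-/- (2.46e-08) and at least 49.5-fold in Pcgf1/2/4-/- (1.96e-05). Between Pcgf3/5/6-/- and Pcgf6-/- the log2 difference was 0.17 ± 0.22 (SE, adjusted p 0.551), while against Pcgf3/5-/- the triple knockout was 5.68 ± 0.38 higher (log2).

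Dab2 was also called higher in Pcgf2/4-/-, at least 6.91-fold (adjusted p 0.00757), and in Pcgf3/5-/-, at least 4.08-fold (adjusted p 0.0238). All 15 counts of Pcgf2/4-/- came from replicate 2, and without that library the log2 difference was 0. The call in Pcgf3/5-/-, which rested on 6 and 5 counts, was lost without any 1 of the 4 libraries compared (adjusted p 0.0640 to 0.103). Against Pcgf2/4-/- and Pcgf1-/-, Dab2 in Pcgf1/2/4-/- was higher by 2.85 ± 0.49 and 6.76 ± 0.76 on the log2 scale. GENCODE M1 has a noncoding gene, Gm16311, on the other strand of Dab2, and the use of strand in the counting is not given in the sources used here.

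Hnf4a, a nuclear receptor of visceral endoderm (chromosome 2, 163332544 to 163398646, plus strand), moved the other way. Its level was 21.3 and 17.9 CPM in wild-type, 27.1 and 14.8 in Pcgf3/5-/-, 7.96 and 14.8 in Pcgf2/4-/-, and 6.67 and 5.49 in Pcgf1-/-. It was 0.534 and 3.61 CPM in Pcgf1/2/4-/-, 3.48 and 3.04 in Pcgf3/5/6-/-, and both Pcgf6-/- libraries had 0 counts. Wild-type and Pcgf3/5-/- overlapped, as did both triple knockouts, and the other neighbours in this order did not. Hnf4a fell at least 94.9-fold in Pcgf6-/- (adjusted p 1.13e-06). The log2 difference was -1.65 ± 0.34 in Pcgf1-/- (adjusted p 0.00265), -3.14 ± 0.56 in Pcgf1/2/4-/- (0.00103) and -2.57 ± 0.46 in Pcgf3/5/6-/- (0.000374). In Pcgf2/4-/- it was -0.64 ± 0.33 (adjusted p 0.186), and -1.29 (0.0407) without replicate 2. With every library thinned to the smallest total, 3 calls in Pcgf1-/- were lost, those of Hnf4a (adjusted p 0.0709), Pdgfra (0.0578) and Col4a1 (0.0744). Pcgf3/5/6-/- had at least 15.8-fold more Hnf4a RNA than Pcgf6-/- (adjusted p 0.00168), so the line lacking more genes by its label had more of it. An RNA gene, 0610008F07Rik, overlaps Hnf4a on the other strand.

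Pdgfra, the receptor for platelet-derived growth factor A (chromosome 5, 75548316 to 75594229, plus strand), rose in the 3 lines named for Pcgf3, Pcgf5 or Pcgf6 and fell in Pcgf1-/-. Wild-type had 1.71 and 1.97 CPM, Pcgf3/5-/- 5.35 and 3.64, Pcgf6-/- 8.47 and 6.74, and Pcgf3/5/6-/- 11.4 and 9.46. Pcgf1-/- had 0.437 and 0, Pcgf2/4-/- 0.838 and 1.15, and Pcgf1/2/4-/- 1.07 and 0.452. None of these lines overlapped with wild-type. The log2 differences were 2.49 ± 0.35 in Pcgf3/5/6-/- (adjusted p 4.51e-05), 2.04 ± 0.33 in Pcgf6-/- (1.38e-04), 1.31 ± 0.36 in Pcgf3/5-/- (0.0196) and -2.56 ± 0.65 in Pcgf1-/- (0.00791). The difference of -1.30 in Pcgf1/2/4-/- and that of -0.77 in Pcgf2/4-/- did not pass the test. The call in Pcgf3/5-/- was lost without wild-type replicate 1 (adjusted p 0.129), wild-type replicate 2 (0.0887) or Pcgf3/5-/- replicate 1 (0.220). Pcgf3/5/6-/- exceeded Pcgf3/5-/- by 1.18 ± 0.31 (log2, adjusted p 0.00522), a call lost without Pcgf3/5/6-/- replicate 1 (0.0616) or with loess scaling (0.256). It did not differ from Pcgf6-/- by the test (0.45 ± 0.28, 0.208).

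Of the basement membrane genes in the list, both collagen genes rose and the laminin gene fell or did not pass the test in the lines where the others rose most. Col4a1 and Col4a2 encode the chains that join in the common collagen IV molecule, and they start head to head on opposite strands of chromosome 8, sharing 22 bases (Col4a1 at 11198423 to 11312826, minus strand, and Col4a2 at 11312805 to 11449287, plus strand), so their peaks are shared. Col4a1 had 8.28 and 7.74 CPM in wild-type, 2.51 and 1.37 in Pcgf1-/-, 6.70 and 8.31 in Pcgf2/4-/- and 13.5 and 7.48 in Pcgf3/5-/-. It had 26.7 and 36.6 CPM in Pcgf1/2/4-/-, 57.1 and 54.4 in Pcgf6-/- and 123.9 and 117.3 in Pcgf3/5/6-/-. The last 3 lines did not overlap with each other or with any other line. The log2 difference from wild-type was 3.91 ± 0.21 in Pcgf3/5/6-/- (adjusted p 6.68e-09), 2.80 ± 0.21 in Pcgf6-/- (1.12e-07), 1.99 ± 0.25 in Pcgf1/2/4-/- (5.67e-05) and -1.90 ± 0.33 in Pcgf1-/- (6.71e-04).

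Col4a2 had 1.71 and 1.69 CPM in wild-type, 8.84 and 9.35 in Pcgf6-/-, 23.5 and 19.9 in Pcgf1/2/4-/-, and 37.9 and 42.9 in Pcgf3/5/6-/-. The remaining 3 lines had 0 to 3.32 CPM. Here Pcgf1/2/4-/- stood above Pcgf6-/-, the reverse of their order for Col4a1. The log2 difference was 4.55 ± 0.33 in Pcgf3/5/6-/- (adjusted p 1.04e-07), 3.65 ± 0.38 in Pcgf1/2/4-/- (1.18e-05) and 2.40 ± 0.37 in Pcgf6-/- (1.01e-04). In Pcgf1-/- it was -1.69 ± 0.66 (adjusted p 0.0655), and it was called lower there with DESeq2 (0.0475), with loess scaling (0.0373) and without Pcgf1-/- replicate 1 (0.0246). In the authors' deposited table its adjusted p in Pcgf1-/- was 0.0464. For reads from the 22 shared bases the gene of origin cannot be told apart without strand.

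Both collagen genes were higher in the triple knockouts than in the lines lacking part of the same genes. Col4a1 in Pcgf1/2/4-/- exceeded Pcgf1-/- by 3.89 ± 0.31 and Pcgf2/4-/- by 2.02 ± 0.27 (log2), and Col4a2 by 5.34 ± 0.48 and 3.01 ± 0.38. In Pcgf3/5/6-/- the excess over Pcgf6-/- was 1.11 ± 0.17 for Col4a1 and 2.15 ± 0.26 for Col4a2, and that over Pcgf3/5-/- 3.48 ± 0.21 and 5.38 ± 0.38. All 8 differences passed the test.

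Lama1, the laminin chain found in the first embryonic basement membranes (chromosome 17, 68046605 to 68171985, plus strand), had 72.6 and 66.1 CPM in wild-type and 63.6 and 65.0 in Pcgf6-/-. It had 50.3 and 40.9 CPM in Pcgf1-/-, 51.9 and 74.0 in Pcgf2/4-/-, 88.9 and 67.7 in Pcgf3/5-/-, 37.4 and 38.4 in Pcgf1/2/4-/-, and 26.9 and 32.1 in Pcgf3/5/6-/-. Both triple knockouts lay below all other lines. It fell by 1.24 ± 0.18 on the log2 scale in Pcgf3/5/6-/- (adjusted p 6.56e-05), by 0.87 ± 0.19 in Pcgf1/2/4-/- (0.00318) and by 0.59 ± 0.16 in Pcgf1-/- (0.0118). The call in Pcgf1-/- was lost without wild-type replicate 1 (0.0883) or Pcgf1-/- replicate 2 (0.193). In Pcgf6-/- the log2 difference was -0.11 ± 0.15 (adjusted p 0.621), and Pcgf3/5/6-/- lay 1.13 ± 0.18 below Pcgf6-/- (2.23e-04).

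**Figure D2:**
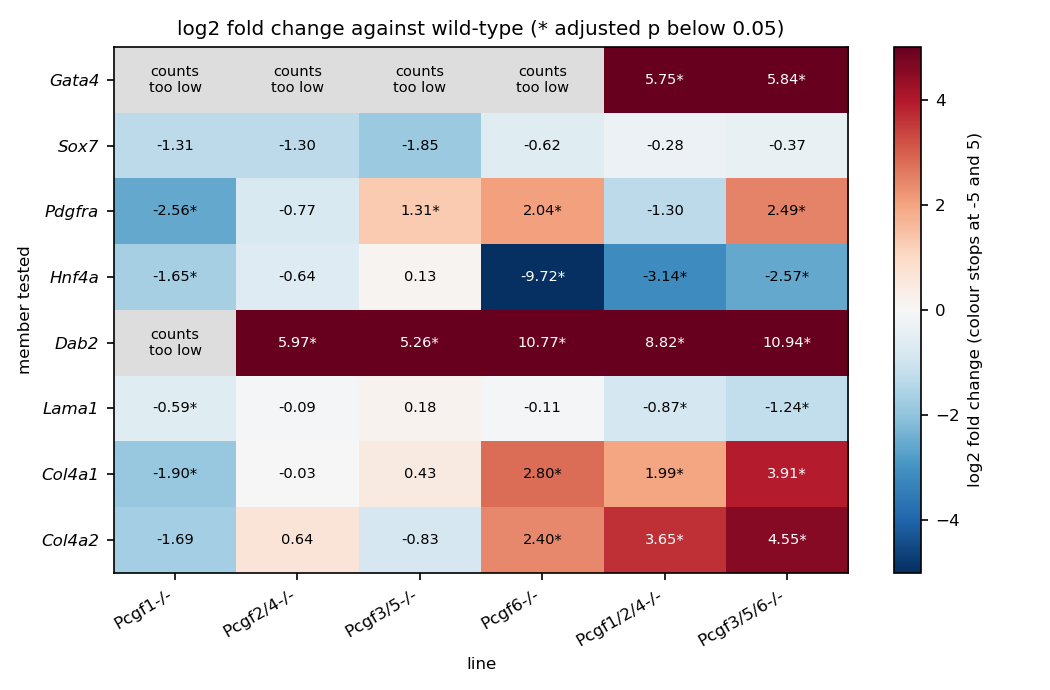
Fitted log2 fold change against wild-type (cell number and colour, which stops at -5 and 5) of the 8 genes that passed the filter (rows) in the 6 knockouts (columns); an asterisk marks an adjusted p below 0.05, and grey cells had too few counts. Col4a1 reaches 3.91 in Pcgf3/5/6-/-, and the numbers for Gata4 and Dab2 in all lines, and for Hnf4a in Pcgf6-/-, stand against a group at 0 and depend on the prior count.

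The filter left 8 of the 10 genes, with Gata4 and Dab2 only through the lines where they were high, so the counts and medians below describe these 8 and do not stand for the list as a whole. In Pcgf6-/-, 4 were raised and 1 lowered (27.8% and 18.6% of the 15464 genes tested). In Pcgf3/5/6-/-, 5 were raised and 2 lowered (28% and 25.3%), and in Pcgf1/2/4-/- 4 and 2 (14.4% and 22.6%). Pcgf1-/- had 0 raised and 4 lowered (13.9% and 18.4%), Pcgf2/4-/- 1 and 0 (8.1% and 13.5%), and Pcgf3/5-/- 2 and 0 (11.1% and 10.4%). The median log2 difference of the 8 was 2.22 in Pcgf6-/-, 3.20 in Pcgf3/5/6-/-, 0.86 in Pcgf1/2/4-/- and -1.48 in Pcgf1-/-, beside 0.03, 0.05, -0.11 and -0.05 for all genes tested. With bounds in place of fitted values for genes at 0, and without genes at or under the floor in both groups, the medians were 2.04 over 7 genes, 2.55 over 8, 0.85 over 8 and -1.67 over 6. The 6 comparisons share the wild-type libraries. Because the list was chosen with earlier results of these data known, its contrast with all genes is a description and not a test. Without the filter, the percentages raised were 6.57% in Pcgf2/4-/-, 23.1% in Pcgf6-/-, 12.1% in Pcgf1/2/4-/- and 23.2% in Pcgf3/5/6-/-.

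Between triple and partial knockouts, Pcgf1/2/4-/- had 4 of the 8 raised and 0 lowered against Pcgf1-/- (19.6% and 22% of all genes), and 4 and 2 against Pcgf2/4-/- (11.6% and 18.4%). Pcgf3/5/6-/- had 5 raised and 2 lowered against Pcgf3/5-/- (27.1% and 24.7%), and 4 raised and 1 lowered against Pcgf6-/- (19% and 27%). The gene lowered against Pcgf6-/- was Lama1, and the 4 raised were Gata4, Hnf4a, Col4a1 and Col4a2. The Gata4 call against Pcgf6-/- rested on 8 counts beside 2 and was lost with DESeq2 (adjusted p 0.103) and without the filter (0.0501). The Gata4 calls in Pcgf1/2/4-/- were lost without Pcgf1-/- replicate 1 (0.104) and without Pcgf2/4-/- replicate 2 (0.193).

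In wild-type cells RING1B peaks lay within 2.5 kb of a start of 8 of the 10 genes, all but Hnf4a and Lama1 (15.8% of 21001 genes). SUZ12 peaks lay at 8 as well (17.2%), H3K4me3 peaks at all 10 (68.4%), PCGF2 peaks at 7 (13.4%, not at Hnf4a, Lama1 or Dab2) and H3K36me3 peaks at 0 (27.8%). The genes without a RING1B peak were those with the highest wild-type RNA per length. By the authors' fold enrichment per peak, Gata6 and Pdgfra had the highest RING1B peaks, 30.3 and 27.9, at percentiles 99.6 and 98.5 of that list. The peak shared by Col4a1 and Col4a2 had 18.7, Sox17 18.1, Sox7 15.1, Gata4 14.9 and Dab2 10.2. Each peak list came from 1 sample, so differences between lists have no test, and the depth behind them is unknown.

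**Figure D3:**
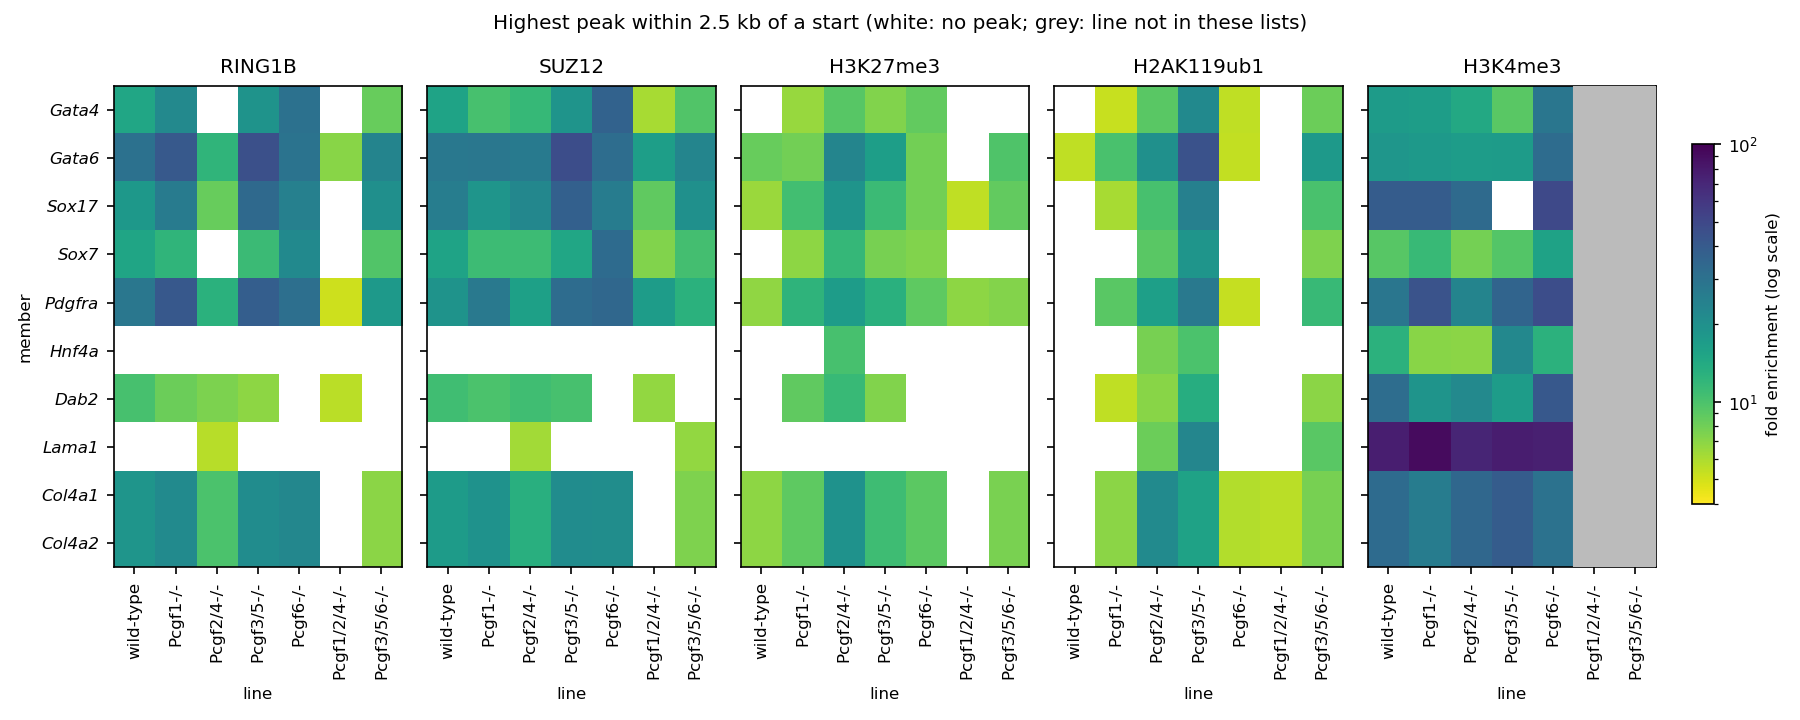
The authors' fold enrichment (colour, log scale) of the highest peak within 2.5 kb of a start of each gene (rows), by line (columns) for RING1B, SUZ12, H3K27me3, H2AK119ub1 and H3K4me3; white cells had no peak, grey lines are not in the lists used here, and the first sample stands for Pcgf1/2/4-/-. RING1B marks 8 genes in wild-type and 3 in Pcgf1/2/4-/-.

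Of the lines profiled for RING1B, Pcgf1/2/4-/- had the fewest members with a peak, 3 in its first sample (7.05% of genes) and 2 in the second (6.28%), Gata6 and Pdgfra in both and Dab2 in the first. Pcgf1-/- and Pcgf3/5-/- had 8 (15.9% and 16%), Pcgf2/4-/- 7 (17.8%), Pcgf6-/- 7 (13.2%) and Pcgf3/5/6-/- 7 (8.37%). The Pcgf2/4-/- list lacked Gata4 and Sox7 and held Lama1, and neither Gata4 nor Sox7 RNA was called higher in that line. At Gata6 the fold enrichment was 40.8 in Pcgf1-/-, 45.3 in Pcgf3/5-/-, 29.4 in Pcgf6-/- and 23.5 in Pcgf3/5/6-/-, but 12.1 in Pcgf2/4-/- and 7.11 and 6.27 in Pcgf1/2/4-/-. The peak spanned 8032 bases in wild-type and 860 and 601 in the Pcgf1/2/4-/- samples. Pdgfra had 41.4 in Pcgf1-/-, 38.2 in Pcgf3/5-/-, 31.0 in Pcgf6-/-, 17.8 in Pcgf3/5/6-/-, 12.9 in Pcgf2/4-/- and 5.10 and 5.56 in Pcgf1/2/4-/-. Fold enrichment depends on the depth and background of each sample, so these values are not levels on a common scale.

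SUZ12 peaks stood at 8 members in Pcgf1-/- (15.8%), 9 in Pcgf2/4-/- (21.9%), 8 in Pcgf3/5-/- (17.7%), 7 in Pcgf6-/- (15.1%), 6 in Pcgf1/2/4-/- (13.8%) and 8 in Pcgf3/5/6-/- (13.6%). SUZ12 remained listed at Gata6 in Pcgf1/2/4-/- with a fold enrichment of 16.4 and at Pdgfra with 16.8, beside 27.7 and 19.2 in wild-type. The H3K27me3 mark itself was listed at 5 members in wild-type (13.4%), 8 in Pcgf1-/- (20.2%), 9 in Pcgf2/4-/- (36.8%), 8 in Pcgf3/5-/- (21.6%), 7 in Pcgf6-/- (14.2%), 2 in Pcgf1/2/4-/- (5.8%) and 5 in Pcgf3/5/6-/- (20.3%). H2AK119ub1 was listed at 1 member in wild-type, Gata6 (3.96%), 7 in Pcgf1-/- (10.3%), 10 in Pcgf2/4-/- (42.1%), 10 in Pcgf3/5-/- (66.9%), 5 in Pcgf6-/- (7.24%), 9 in Pcgf3/5/6-/- (32.1%) and 2 and 0 in the Pcgf1/2/4-/- samples (1.72% and 0.852%). The share of all genes listed ranged widely between these lists, and no spike-in scaling entered these lists' values here.

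The collagen start lost its listed RING1B and SUZ12 peaks in Pcgf1/2/4-/- and kept them in Pcgf6-/-, and Col4a1 and Col4a2 RNA was higher in both lines. The RING1B fold enrichment there was 18.7 in wild-type, 21.5 in Pcgf1-/-, 9.91 in Pcgf2/4-/-, 20.9 in Pcgf3/5-/-, 22.5 in Pcgf6-/- and 7.04 in Pcgf3/5/6-/-. In Pcgf1/2/4-/- the nearest RING1B peaks of the 2 samples lay 165.6 and 1974.8 kb away. H2AK119ub1 was listed at this start in the first Pcgf1/2/4-/- sample (fold enrichment 5.56) and in the other Pcgf knockouts. It was not listed in wild-type or in the second Pcgf1/2/4-/- sample. H3K4me3 at this start ranged from 26.0 to 39.2 over the 5 lines profiled, with 32.6 in wild-type and 29.6 in Pcgf6-/-.

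Dab2 showed a different arrangement. At its internal start RING1B was listed with a fold enrichment of 10.2 in wild-type, 8.27 in Pcgf1-/-, 7.51 in Pcgf2/4-/-, 6.90 in Pcgf3/5-/- and 5.61 in the first Pcgf1/2/4-/- sample. In the second Pcgf1/2/4-/- sample the nearest peak lay 1056.6 kb from the closest annotated Dab2 start. In Pcgf6-/- and Pcgf3/5/6-/- the nearest RING1B peak lay 450.1 and 450.6 kb from the closest annotated Dab2 start. Those were the lines with the highest Dab2 RNA. SUZ12 was listed there with 10.7 in wild-type, 10.0 in Pcgf1-/-, 10.8 in Pcgf2/4-/-, 10.2 in Pcgf3/5-/- and 6.71 in Pcgf1/2/4-/-, and was also absent from the Pcgf6-/- and Pcgf3/5/6-/- lists. The summit of the wild-type RING1B peak lay 56 bases before the start, inside the stretch printed above, and that of a PCGF6 peak (fold enrichment 6.93) 55 bases before it. No PCGF2 peak was listed near Dab2 in any line. H2AK119ub1 was listed near a Dab2 start in Pcgf1-/-, Pcgf2/4-/-, Pcgf3/5-/- and Pcgf3/5/6-/-, but not in wild-type, Pcgf6-/- or Pcgf1/2/4-/-.

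PCGF6 at Dab2 was also listed in Pcgf1-/- (7.87), Pcgf2/4-/- (16.0) and cells with a control hairpin, shCtr (8.65). It was not listed in Pcgf3/5-/-, Pcgf6-/- or shMGAdHLH, nor after knockdown of Mga (shMGA) or of E2f6 (shE2F6). PCGF6 peaks also stood at 0 members in Ring1a-/- cells with floxed Ring1b (6.26% of genes) and in Ring1a/b-/- (4.83%). Across the list, PCGF6 peaks stood at 6 members in shCtr (21% of genes), and at 0 in shMGA (0.729%), 0 in shE2F6 (1.88%) and 1 in shMGAdHLH (2.26%). In wild-type 2 members had one (5.83%), Pdgfra and Dab2, and 6 in Pcgf1-/- (18.2%), 7 in Pcgf2/4-/- (33.5%), 0 in Pcgf3/5-/- (5.4%) and 1 in Pcgf6-/- (1.62%). The last, at Lama1 with a fold enrichment of 8.23, was called in cells without counts of Pcgf6, so it shows what the antibody gave there without the gene's RNA. WDR5, a subunit of H3K4 methyltransferase complexes, was listed at Dab2 with 8.44, its summit 25 bases before the start, the 1 member with such a peak (9.49% of genes). H3K4me3 at Dab2 was 31.8 in wild-type over 1106 bases and 41.5 in Pcgf6-/- over 1607, and H3K27me3 was listed there in Pcgf1-/-, Pcgf2/4-/- and Pcgf3/5-/- but not in wild-type or Pcgf6-/-.

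Hnf4a, which had neither RING1B nor SUZ12 in wild-type, differed between lines in H3K4me3. At the start at 163332674, before which the printed stretch lies, the fold enrichment was 12.7 in wild-type, 7.10 in Pcgf1-/- and 22.1 in Pcgf3/5-/-, with summits 4 to 23 bases before the start. No peak was listed at that start in Pcgf6-/- or Pcgf2/4-/-. A second peak about 1.7 kb before another start, at 163362755, was listed with 7.21 in wild-type, 7.04 in Pcgf2/4-/-, 5.89 in Pcgf3/5-/- and 12.7 in Pcgf6-/-. So Pcgf6-/-, without counts of Hnf4a, lacked the peak at the first of these starts only. The same held for Pcgf2/4-/-, which had 7.96 and 14.8 CPM of Hnf4a. Lama1 had one of the higher H3K4me3 peaks of each line, from 71.5 to 90.5, with 76.5 in wild-type at percentile 97.1.

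**Figure D4:**
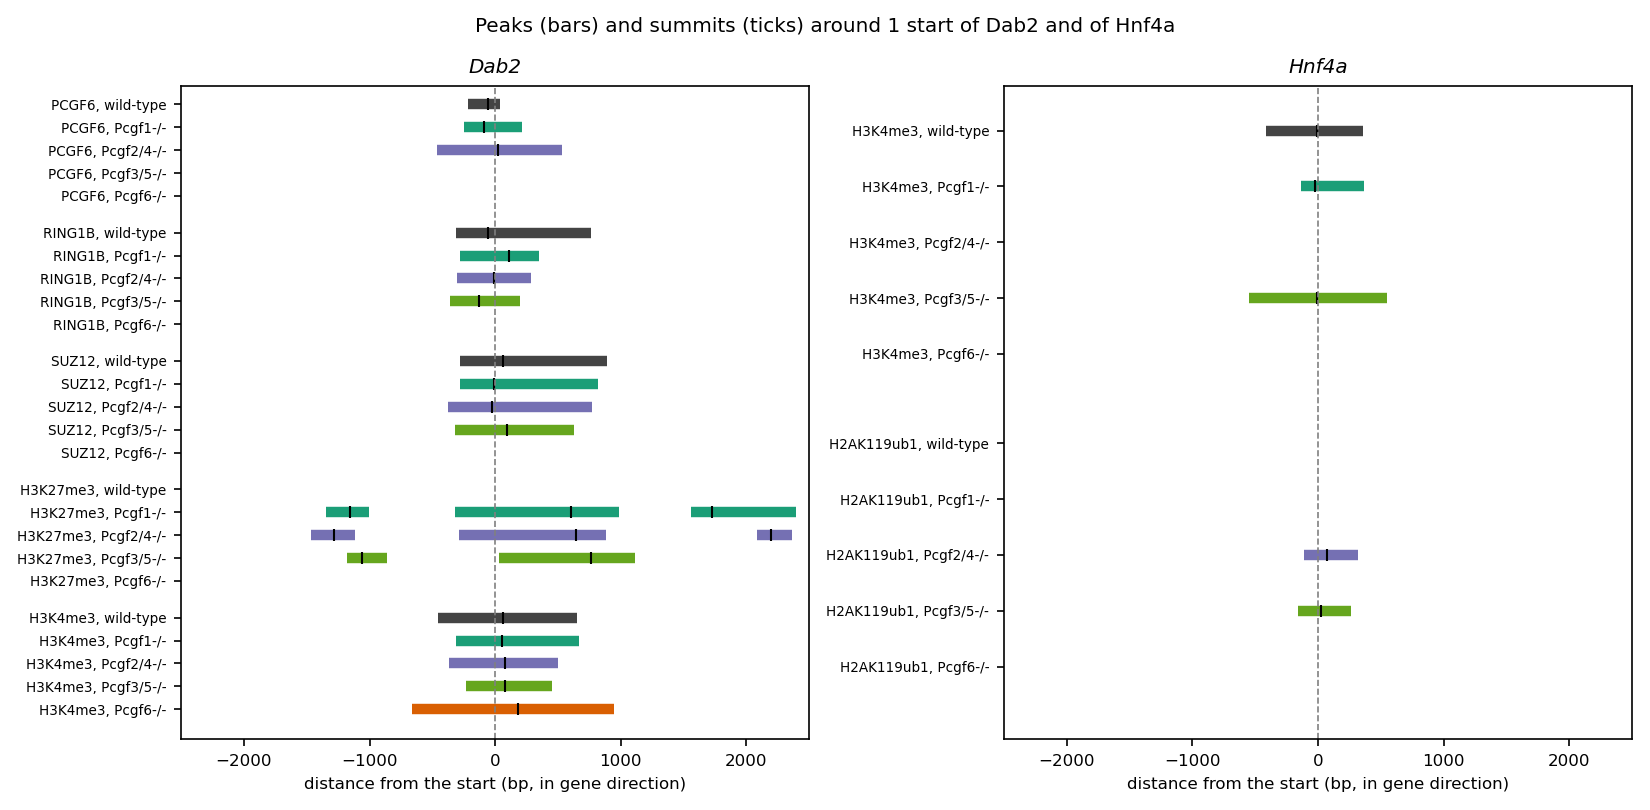
Peaks (bars) and their summits (ticks) by distance in bases from the internal Dab2 start and from the Hnf4a start, with 1 line of the plot per antibody and cell line. At Dab2 the PCGF6, RING1B and SUZ12 bars are missing in Pcgf6-/- and the H3K4me3 bar is not, and at Hnf4a the H3K4me3 bar is missing in Pcgf2/4-/- and Pcgf6-/-.

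PCGF1 peaks stood at 1 member in wild-type, Gata6 (2.6% of genes), 4 in Pcgf2/4-/- (5.82%), 0 in Pcgf3/5-/- (0.824%), 7 in Pcgf6-/- (10.2%) and 8 in Ezh1/2-/- (11.5%). PCGF2 peaks stood at 7 in Pcgf1-/- (13.1%), Pcgf3/5-/- (10.2%) and Pcgf6-/- (20.4%), at 0 in Pcgf2/4-/- (3.58%), and at 0 in Ezh1/2-/- (0.824%), which lacks the enzymes that lay H3K27me3. PCGF2 was listed at 7 in Ring1a-/- cells with floxed Ring1b (10%) and 0 in Ring1a/b-/- (1.63%). PCGF1 was listed at 8 in the former (32.7%) and 3 in the latter (4.34%), Lama1, Col4a1 and Col4a2. PCGF3 peaks stood at 0 members in wild-type (0.89%), Pcgf1-/- (0.319%), Pcgf2/4-/- (0.419%), Pcgf3/5-/- (0.0476%) and Pcgf6-/- (2.31%). The PCGF1 list of Pcgf1-/- cells had 0 members too (0.00952%). H3K4me3 stood at 10 members in Pcgf1-/- (67.4%), Pcgf2/4-/- (68.3%) and Pcgf6-/- (70.1%), and at 9 in Pcgf3/5-/- (67.1%), where the nearest peak of Sox17 lay just outside the window.

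Other genes of the lineage were read from a list of 22, of which 17 passed the filter. In Pcgf6-/-, 11 were raised and 2 lowered, with a median log2 difference of 0.88, and in Pcgf3/5/6-/- 11 and 1, with 1.21. Of all genes tested, 27.8% were raised and 18.6% lowered in Pcgf6-/- (median 0.03), and 28% and 25.3% in Pcgf3/5/6-/- (median 0.05), which holds for the lists below too. Plat, tissue plasminogen activator, made by parietal endoderm, had 43.9 and 34.5 CPM in Pcgf3/5/6-/-, 6.47 and 3.98 in Pcgf6-/- and 1.28 and 1.12 in wild-type (log2 5.00 ± 0.36 and 2.12 ± 0.44). Lrp2, an endocytic receptor of visceral endoderm that uses DAB2 as an adaptor, had 70.5 and 68.9 CPM in Pcgf3/5/6-/-, 35.98 and 37.69 in Pcgf6-/- and 15.5 and 12.2 in wild-type (2.33 ± 0.22 and 1.40 ± 0.21). Fst, the activin inhibitor follistatin, fell in both, to 0.632 and 1.01 CPM in Pcgf3/5/6-/- from 15.8 and 15.9. In Pcgf1/2/4-/- 2 were raised and 5 lowered (14.4% and 22.6% of all genes), with Cited1 at 14.4 and 10.4 CPM beside 62.1 and 63.7 in wild-type. Pcgf1-/- had 3 and 4 (13.9% and 18.4%), Pcgf2/4-/- 4 and 3 (8.1% and 13.5%), and Pcgf3/5-/- 6 and 2 (11.1% and 10.4%). In Pcgf1/2/4-/- and Pcgf1-/- the shares of the 17 lay near those of all genes.

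Of 15 further basement membrane genes, 7 were raised and 3 lowered in Pcgf3/5/6-/-, 5 and 6 in Pcgf6-/-, 1 and 6 in Pcgf1/2/4-/- (14.4% and 22.6% of all genes), and 2 and 5 in Pcgf1-/- (13.9% and 18.4%). In Pcgf6-/- the share raised, 5 of 15, lay near that of all genes. Lamb1, the laminin β1 chain, had 16.1 and 14.4 CPM in wild-type, 128.0 and 123.6 in Pcgf6-/-, 125.8 and 120.3 in Pcgf3/5/6-/-, 1.97 and 1.37 in Pcgf1-/- and 4.01 and 4.03 in Pcgf3/5-/-. Its log2 differences were 3.04 ± 0.17, 3.01 ± 0.17, -3.09 ± 0.29 and -1.92 ± 0.25. It was not called in Pcgf1/2/4-/-, where both collagen genes rose. Serpinh1, the collagen chaperone, had 103 CPM in both Pcgf3/5/6-/- libraries and 19.4 and 20.1 in wild-type (2.38 ± 0.18). It was also higher in Pcgf1-/- (1.35 ± 0.18), where Col4a1 fell, and in Pcgf3/5-/- (1.02 ± 0.19). In Pcgf1/2/4-/-, where both collagen genes rose, it was lower (-1.43 ± 0.30), as in Pcgf2/4-/- (-0.70 ± 0.22), and it was not called in Pcgf6-/-. P4ha2, a collagen prolyl hydroxylase subunit, rose by 2.16 ± 0.15 in Pcgf6-/-. Of 13 genes of FGF and PDGF signalling, 4 were raised and 6 lowered in Pcgf6-/- and 4 and 5 in Pcgf3/5/6-/-, with the shares raised near those of all genes. Among them Spry4, a feedback inhibitor of FGF signalling, had 99.7 and 95.9 CPM in wild-type and 9.09 and 7.20 in Pcgf6-/-. Spry4 was called lower in every knockout. Pdgfc, a ligand of PDGFRA, had log2 differences of -2.03 ± 0.19 in Pcgf3/5/6-/-, -1.63 ± 0.15 in Pcgf6-/- and -0.94 ± 0.18 in Pcgf1/2/4-/-. In Pcgf3/5-/- it was 0.96 ± 0.13 higher. Its receptor gene Pdgfra was called higher in Pcgf3/5/6-/-, Pcgf6-/- and Pcgf3/5-/-, and was not called in Pcgf1/2/4-/-.

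Markers of other cell types also differed between lines, and not always in the lines where the 10 genes did. The summed level of 10 trophoblast genes was 260 and 273 CPM in wild-type, 514 and 529 in Pcgf6-/-, 419 and 464 in Pcgf1/2/4-/-, and 1704 and 1738 in Pcgf3/5/6-/-, where 9 were raised and 1 lowered. Krt7 and Krt18, epithelial keratins, rose there by 8.20 ± 0.25 and 3.74 ± 0.18, while Cdx2, the defining factor of trophoblast, fell from 71.1 and 77.8 to 18.6 and 20.3 CPM. For 11 pluripotency genes the sum was 2461 and 2482 CPM in wild-type, 2048 and 2157 in Pcgf6-/-, 3809 and 3684 in Pcgf1/2/4-/-, and 2241 and 2216 in Pcgf3/5/6-/-. It was 2205 and 3025 in Pcgf1-/-, 3853 and 2751 in Pcgf2/4-/- and 2422 and 2778 in Pcgf3/5-/-. A sum as high as that of Pcgf1/2/4-/- was thus also found in 1 Pcgf2/4-/- library. Of the 11 genes, 0 were at 0 in any library. In Pcgf6-/- 1 of them was raised and 2 lowered, and in Pcgf3/5/6-/- 2 and 6. Of 8 mesendoderm genes 0 to 4 were at 0 by library, and their sum was 53.3 to 60.1 CPM in wild-type and 22.2 to 51.8 in the knockouts. T, the mesoderm factor brachyury, had 36.2 and 30.0 CPM in wild-type and 0.623 and 1.23 in Pcgf6-/-. It was called lower in every knockout. Of the 4 mesendoderm genes that passed the filter, 1 was raised and 3 lowered in Pcgf6-/-, and 1 and 2 in Pcgf3/5/6-/-. The raised gene was Mesp2 in both lines (log2 2.02 ± 0.29 and 2.88 ± 0.29). Of 10 fibroblast genes 1 to 6 were at 0 by library, with sums of 227 and 236 CPM in wild-type, at most 126.7 in Pcgf6-/- and 126 in both Pcgf3/5/6-/- libraries. Vim, an abundant gene of this list, had 210 and 223 CPM in wild-type and 81.4 and 79.5 in Pcgf6-/-. Of the 6 that passed the filter, 4 were raised and 1 lowered in Pcgf6-/- (median 1.87) and 4 and 2 in Pcgf3/5/6-/- (median 2.30), the 4 being Acta2, Col1a1, Col1a2 and Thy1 in both. The part of these markers in the results for the 10 genes was not tested.

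**Figure D5:**
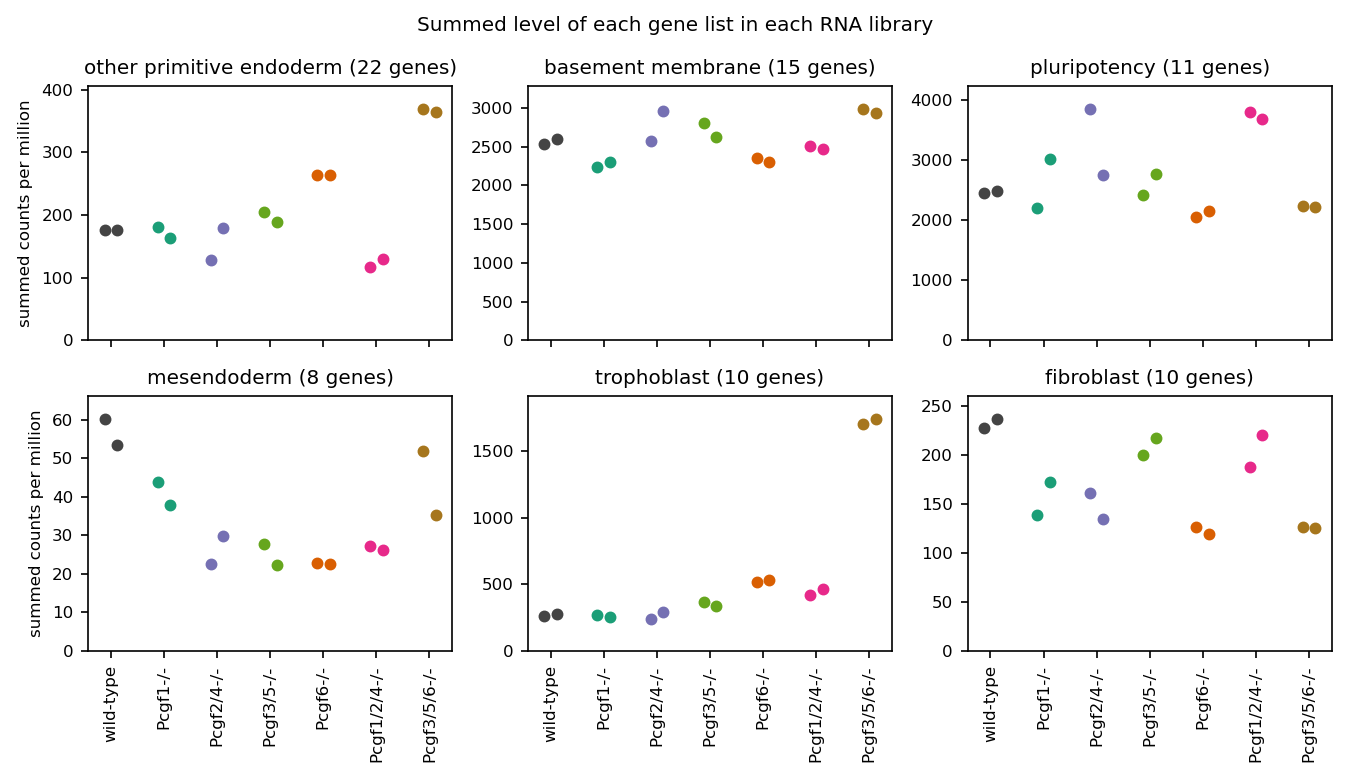
Summed CPM (vertical axis from 0, a scale per list) of 6 gene lists without the 10 members, in each of the 7 lines; each point is 1 library. The 22 other primitive endoderm genes sum to 176 in both wild-type libraries, 263 in both of Pcgf6-/- and 369 and 365 in Pcgf3/5/6-/-, and the trophoblast list is highest in Pcgf3/5/6-/-.

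The genes most like 3 members were found by the root mean square difference of the 7 line means of log2 CPM, each centred on its mean. For Gata4 these were Pura, Glrx5 and Tomm40 (0.15, 0.16 and 0.20), among 4446 candidates. Sox17 had Myef2, Pag1 and Cdkn2a (0.19, 0.22 and 0.25). The genes nearest to Hnf4a, Loxl3, T and Dhrs3, differed from it by 0.75, 0.78 and 0.81, against its own SD over lines of 2.07. With 7 line means and few counts for Gata4 and Sox17, these are descriptions of likeness alone.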

How the data were processed

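RNA-seq covered 14 libraries (7 groups of 2) and ChIP-seq 81 samples, of which 80 peak lists were used. The authors deposited whole-number counts per gene symbol without normalization, log2 fold changes with p-values and adjusted p-values per comparison, and peaks with a fold enrichment (ratio) and −log10 p and q values, each list called on 1 sample. Per the submitters' processing notes the tools were Bowtie 1.2.2, TopHat2 2.1.1, HTSeq 0.7.2, MACS2 2.1.1, Picard 1.62 and DESeq2, with the build mm9. The use of strand in counting is not given in the sources used here, and the number of unmapped columns of per-sample values was 0.

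Counts were fitted with edgeR 4.0.16 (R 4.3.3, limma 3.58.1): TMM factors, filterByExpr, 1 quasi-likelihood fit of all 14 libraries, and Benjamini-Hochberg adjustment over 15464 genes for each of 10 comparisons, called at 0.05. The common dispersion was 0.015. A group of 2 libraries against 2 allows no exact permutation test below that threshold. Log2 differences carry the SE of the fit. CPM values use TMM-adjusted totals. A fold against a group at 0 is a lower bound from a floor of 3 counts over the group, and floors cover counting error only. Genes were matched to GENCODE M1 on NCBIM37 by symbol (21001 of 23377). A peak counted for a gene when it shared at least 1 bp with the 2.5 kb either side of any annotated start. Motifs were searched in NCBIM37 windows, not in a RefSeq table of another build, at the start nearest to the highest wild-type RING1B summit, or else the H3K4me3 summit. The fit was tested on simulated data, with changes set only in genes above a minimum count. That test does not cover members with few counts or a group at 0.

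The text names the 10 members. From each other list it could name, per knockout, the 2 raised and 2 lowered genes of largest log2 fold change that passed the test and averaged at least 2 on the log2 CPM scale (prior count 2). The nearest genes were 3 each for Gata4, Gata6, Sox17 and Hnf4a, with the same minimum level, and those of Gata6 are not reported here. The members and lists were chosen with earlier results of these data known. Alternatives were RLE factors, DESeq2 1.42.0, no filter, only the groups compared, a replicate block, leaving out each library, loess offsets, thinning to 2147968 counts, a test against a log2 fold change of 1, other windows, a −log10 q of at least 10 and only the first start. Replicate numbers did not pair the samples, and the spike-in was not used.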

Additional observations from a re-analysis of the deposited data

How the results depend on the processing

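Of 889 values of single members under other settings, 812 kept their direction and their side of the threshold, 47 lost the call, 12 gained one and 18 reversed, none of the reversed ones being called in the fit reported. The number of members changed in Pcgf1-/- was 4, and 1 after thinning and 1 in the test against a log2 fold change of 1. In Pcgf2/4-/- it was 1, and 2 without the filter, 0 with only the groups compared and 0 after thinning. In Pcgf3/5-/- it was 2, and 1 with only the groups compared, 1 after thinning and 0 in the test against a log2 fold change of 1, which left 3 of 6 in Pcgf1/2/4-/- against Pcgf2/4-/- and 2 of 5 in Pcgf3/5/6-/- against Pcgf6-/-. Leaving out 1 library gave 3 to 5 in Pcgf1-/-, 1 to 2 in Pcgf2/4-/-, 0 to 2 in Pcgf3/5-/-, 5 to 6 in Pcgf6-/- and in Pcgf1/2/4-/-, and 7 to 8 in Pcgf3/5/6-/-. It gave 3 to 4 and 3 to 6 in Pcgf1/2/4-/- against Pcgf1-/- and Pcgf2/4-/-, and 6 to 8 and 4 in Pcgf3/5/6-/- against Pcgf3/5-/- and Pcgf6-/-. Leave-one-library-out ranges of log2 differences that crossed 0 were, against wild-type unless named, for Sox7 -0.69 to 0.12 in Pcgf1/2/4-/-, -2.07 to 0.32 in Pcgf3/5/6-/-, -0.22 to 2.21 in Pcgf3/5/6-/- against Pcgf3/5-/- and -1.45 to 0.96 against Pcgf6-/-. They were -0.40 to 0.47 for Hnf4a in Pcgf3/5-/-, -0.42 to 0.11 and -0.04 to 0.36 for Lama1 in Pcgf2/4-/- and Pcgf3/5-/-, -0.26 to 0.07 and -0.10 to 0.75 for Col4a1 in these lines, and -1.0 to 0.97 for Col4a2 in Pcgf2/4-/-. Thinning reversed Pdgfra in Pcgf2/4-/- (0.57), Hnf4a in Pcgf3/5-/- (-0.03) and Col4a2 in Pcgf2/4-/- (-0.09), and Col4a1 in Pcgf2/4-/- was 0.01 with only the groups compared and 0.05 with loess offsets. In wild-type, members with a PCGF1 peak numbered 1, 2 with a 5 kb window and 0 at a −log10 q of at least 10. For H2AK119ub1 these were 1, 2 and 0, and for PCGF6 2, with 0 at that q and 1 with only the first start. The cause was not tested. Replicate numbers did not pair the samples (21 pairs of groups, correlation -0.46 to 0.38, 3 above 0.1), and with the replicate block only Sox7 in Pcgf3/5-/- changed its call, to -1.91 (adjusted p 0.0432). With totals down to 2147968 counts, a gene under about 1.60 CPM may give no 3 counts in a library.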
